A study of Mus musculus with 26 samples.

Results

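Ccl3/Ccl4-high embryonic microglia were cells of the prospective mouse somatosensory cortex with a high content of 2 chemokine mRNAs, Ccl3 and Ccl4. They were selected from sorted single-cell libraries at E13.5 and E15.5 by 4 criteria: at least 2 UMIs (unique molecular identifiers, 1 per captured mRNA molecule) of the microglial genes Csf1r and C1qa together, at least 20 UMIs of Ccl3 and Ccl4 together per 10000 UMIs of the cell, at most 1 UMI of the macrophage gene Ms4a7, and under 20 UMIs of Spp1 per 10000. This selection found 672 cells, out of 34884 embryonic barcodes with the microglial genes and 37948 embryonic barcodes kept by a filter (500 or more genes, and no more than 20% of UMIs from mitochondria). The 31929 cells that met all criteria except the chemokine threshold are called other microglia.

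The study asked how fetal brain cells respond to maternal immune activation (MIA), here an intraperitoneal injection of the double-stranded RNA mimic poly(I:C) into the mother at E12.5, with saline as the control. All sorted embryonic libraries came from wild-type C57Bl/6N embryos of mixed sex, with 3 saline and 3 MIA libraries at each age, labelled E13 and E15. Each library pooled several embryos. Cells were released with a pestle without enzyme, and sorted with antibodies to Cd11b, Cx3cr1 and Cd45. The 6 P14 libraries of the same strain and treatments, 4 saline and 2 MIA, were compared where stated, and 2 of the saline ones are the female and male samples of replicate 3.

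CCL3 and CCL4 are secreted chemokines that attract leukocytes. Macrophages and microglia transcribe both genes rapidly after stimulation through NF-kB and stress-responsive transcription factors. In the brain their expression marks activated microglia after injury, during ageing and in a small number of developmental microglia.

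The 2 genes are neighbours on chromosome 11 in the mm10 build, with 13228 bases between them. Ccl3 (ENSMUSG00000000982) lies at chr11:83647844-83649355 on the minus strand and Ccl4 (ENSMUSG00000018930) at chr11:83662584-83664683 on the plus strand. Ccl2, at chr11:82035571-82037453, and Ccl12, at chr11:82101845-82103400, lie on the same chromosome, as do Ccl5, Ccl6, Ccl7 and Ccl9. The promoter windows of 3 genes are shown because the results turn on these genes: Ccl3, one of the selecting genes, Cxcl10, which differed most among the leading genes after Ccl2, and Isg15, the gene whose difference changed most clearly with age. Each holds the 250 bases before the RefSeq start in GRCm38.p6, read 5′ to 3′ on the gene's strand, with matches in capitals.
Ccl3 (chr11:83649379-83649628, minus strand): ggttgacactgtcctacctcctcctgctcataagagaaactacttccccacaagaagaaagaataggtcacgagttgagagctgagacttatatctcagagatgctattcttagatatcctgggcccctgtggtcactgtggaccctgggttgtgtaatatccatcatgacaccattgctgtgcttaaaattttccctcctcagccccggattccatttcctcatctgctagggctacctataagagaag
Cxcl10 (chr5:92348890-92349139, minus strand): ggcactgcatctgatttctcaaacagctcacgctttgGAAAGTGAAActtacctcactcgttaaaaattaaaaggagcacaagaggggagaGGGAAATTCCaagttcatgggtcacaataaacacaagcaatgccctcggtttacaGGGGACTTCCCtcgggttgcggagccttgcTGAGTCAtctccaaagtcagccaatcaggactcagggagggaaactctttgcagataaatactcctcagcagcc
Isg15 (chr4:156200819-156201068, minus strand): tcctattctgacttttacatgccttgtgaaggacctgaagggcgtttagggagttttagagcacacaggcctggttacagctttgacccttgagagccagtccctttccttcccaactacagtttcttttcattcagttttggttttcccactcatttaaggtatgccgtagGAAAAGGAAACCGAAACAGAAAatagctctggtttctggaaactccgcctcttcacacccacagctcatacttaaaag
The capitals mark the core of the interferon-stimulated response element, which is 2 copies of GAAA with 2 bases of any kind between them, TGANTCA, the AP-1 site, and the kappaB consensus of NF-kB, each searched on both strands. The Ccl3 window held no match. Cxcl10 held 1 interferon response core, 1 TGANTCA and 3 kappaB matches, 2 of which overlap. Isg15 held 3 overlapping interferon response cores. Other genes named below were searched too. The windows of Irf7, Ccl12, Tnf, Atf3 and Il1b held no match. Ifit3 held 2 interferon response cores and 1 TGANTCA, and Rsad2 held 1 of each. Of the Egr2 windows only the most upstream held matches, 2 of the kappaB consensus. Of 32851 promoter windows of this length, 2.98% held the interferon response core, 6.75% held TGANTCA and 7.25% held the kappaB consensus. These are letter matches, not measured binding.

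The libraries differed widely in size. The embryonic libraries held 6160925 to 105751888 UMIs after the filter, with a median of 7860 to 24494 UMIs per barcode, and 2 of the E13.5 MIA libraries held only 268 and 354 microglia. Some barcodes occurred in more than 1 library: E13.5 MIA replicate 2 shared 230 of its barcodes (61.3%) with E15.5 MIA replicate 3 and 157 (41.9%) with E15.5 saline replicate 3, E15.5 saline replicate 3 and E15.5 MIA replicate 3 shared 157 (10.7% of the smaller), and E13.5 MIA replicate 1 shared 67 (23.9%) with E13.5 saline replicate 1. Of the 672 selected cells, 13 had such a barcode. Results without them are given below, and E13.5 MIA replicates 1 and 2, with 3 and 4 selected cells, entered no gene expression test. Doublet scoring marked 18 selected cells (2.68%) and 3.62% of all embryonic barcodes. In E15.5 saline replicate 1 it marked 4 of 18 selected cells (22.2%) and 4.63% of all barcodes.

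The values of the selecting genes follow from the selection and are given as a description. A Ccl3/Ccl4-high cell held a median of 44 UMIs of Ccl3 and Ccl4 together, from 2 to 1068, which is a median of 32.6 and a maximum of 591 per 10000 UMIs. In 32 cells the threshold was passed with fewer than 5 chemokine UMIs. There was no gap at the threshold: 314 other microglia lay between 15 and 20 per 10000 and 187 selected cells between 20 and 25, with 114 between 25 and 30, 234 between 30 and 60, 86 between 60 and 120, and 51 at 120 or more. The cells are therefore the upper range of a continuous distribution. They held 41.3% of all microglial Ccl3 and Ccl4 UMIs, and 2.0% to 62.2% in single libraries, lowest in the small E13.5 MIA replicate 1 and highest in E15.5 saline replicate 2.

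Ccl3 and Ccl4 did not always occur together. Of the 672 cells, 266 had at least 90% of their chemokine UMIs from Ccl3, 26 had at least 90% from Ccl4, and 380 were mixed. No Ccl4 UMI was found in 160 cells and no Ccl3 UMI in 12. Summed over cells, the 10 libraries used for expression held 2087, 2859 and 3497 UMIs per 1000000 UMIs (CPM) of Ccl3 as the lowest, median and highest value, and 1213, 2329 and 3117 CPM of Ccl4, against 43.6 to 232 CPM of Ccl3 and 9.65 to 49.7 CPM of Ccl4 in other microglia. Cells below the threshold also held both transcripts, more often than barcodes with little Csf1r and C1qa: with each cell thinned to 4000 UMIs, a Ccl3 UMI was found in 21.9% of all microglia and in 4.91% of barcodes with under 2 UMIs of Csf1r and C1qa, and a Ccl4 UMI in 6.50% and 1.74%. Without thinning the shares were 36.8% and 9.51% for Ccl3 and 13.7% and 4.09% for Ccl4, at median depths of 12687 and 10774 UMIs.

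The label of microglia rests on Csf1r and C1qa, which the selection used, and was checked with the markers of other cells. Csf1r was at 927 to 1901 CPM and C1qa at 2721 to 5424 CPM, ranges that overlap those of other microglia (991 to 2390 and 2990 to 6229 CPM). Within each of these 10 libraries both genes were lower in the selected cells, except in E13.5 saline replicate 2. There Csf1r was at 1579 against 1352 CPM and C1qa at 3464 against 3078 CPM. In E15.5 saline replicate 2 they were at 1553 against 2270 and 4784 against 5731 CPM. The genes of T and NK cells were at 0 UMIs for 9 of 9 markers, those of mast cells and basophils for 7 of 8, and those of blood myeloid cells for 7 of 12, including S100a9, Ly6c2, Mpo and Elane. The summed blood myeloid markers ranged from 2.40 to 89.4 CPM (median 26.9), against 4.77 to 17.7 CPM in other microglia, and were lower than in other microglia in all 4 E13.5 libraries and higher in all 6 E15.5 libraries (15.6 to 89.4 CPM). Of these markers 1 was tested, Plac8, which was higher (log2 difference 2.39 ± 0.35 SE, adjusted p = 2.0e-05). Plac8 alone was at 15.6 to 85.5 CPM in the E15.5 libraries and thus made up most of the sum there. The border macrophage markers summed to 526 to 692 CPM against 584 to 847 CPM, with Lyve1 and Cd163 at 0. Marker sums of neurons were lower in the selected cells in all 10 libraries (9.58 to 366 CPM, median 41.2, against 26.9 to 1183 CPM, median 107), those of neural progenitors in 9 of 10 (73.9 to 294 against 126 to 313 CPM) and those of red blood cells in 7 of 10 (6.85 to 1704 against 33.4 to 4945 CPM). Marker sums of endothelium and pericytes were higher in the selected cells in 6 of 10 libraries (11.9 to 78.1 CPM, median 36.2, against 17.7 to 47.9 CPM, median 28.4). The part of RNA from such cells in the gene differences below was not tested.

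The share of Ccl3/Ccl4-high cells among microglia was about 1% at E13.5 and more variable at E15.5. At E13.5 it was 1.33%, 1.20% and 0.511% in the saline libraries and 1.12%, 1.13% and 0.889% in the MIA libraries. At E15.5 it was 0.330%, 3.98% and 2.08% after saline and 5.02%, 1.80% and 2.35% after MIA. Exact 95% binomial intervals, which cover counting error only, ran from 0.196 to 0.521% for the lowest E15.5 library, from 0.231 to 3.24% for the smallest library, and from 4.42 to 5.68% for the highest E15.5 library. The group means were 1.01% ± 0.441 (SD, n = 3) for saline and 1.05% ± 0.136 (SD, n = 3) for MIA at E13.5, and 2.13% ± 1.82 (SD, n = 3) and 3.06% ± 1.72 (SD, n = 3) at E15.5. The saline and MIA libraries overlapped at both ages.

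**Figure D1:**
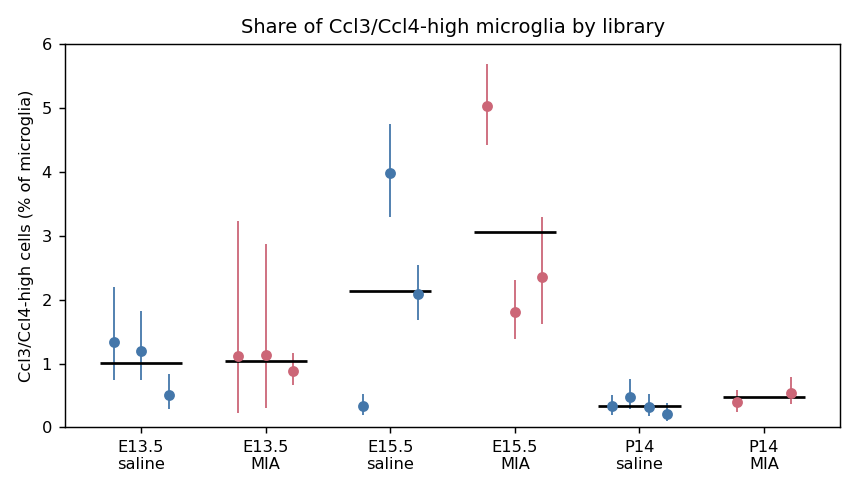
Share of Ccl3/Ccl4-high cells among microglia (y axis, %) in each library by age and treatment (x axis); points are libraries with exact 95% binomial intervals, horizontal lines are group means. The 6 E15.5 libraries spread from 0.330% to 5.02%, the 6 E13.5 libraries from 0.511% to 1.33% and the 6 P14 libraries from 0.207% to 0.546%.

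MIA did not change this share beyond the spread between libraries. The difference was 0.03 percentage points at E13.5 (two-sided exact permutation test, p = 1) and 0.93 points at E15.5 (exact p = 0.6), where 0.1 is the smallest p that 3 against 3 libraries allow. When 1 library was left out the MIA difference ran from -0.22 to 0.19 points at E13.5 and from -0.052 to 1.85 points at E15.5. With labels permuted within age over both ages it was 0.48 points (exact p = 0.495, smallest possible 0.005). The E15.5 libraries were higher than the E13.5 libraries by 1.56 points (exact p = 0.05, labels permuted within treatment), which is at the threshold and not below it. One E15.5 library, saline replicate 1, had the lowest embryonic share, and without it the difference was 2.01 points (exact p = 0.005). Without E15.5 MIA replicate 2 or 3 the exact p was 0.025 or 0.045, and without any 1 of the other 9 libraries it was 0.07 to 0.125, with 1.07 points as the smallest difference, without E15.5 MIA replicate 1. After thinning the difference was 1.67 points (exact p = 0.095), without the marked doublets it was 1.58 points (exact p = 0.055), and without the shared barcodes it was 1.43 points (exact p = 0.065). Age and the preparation of the libraries of each age cannot be told apart.

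Against other microglia of the same library, Ccl3/Ccl4-high cells summed together had a broad programme of chemokine, cytokine, stress-response and lysosomal genes. Levels of mitotic genes were lower. UMIs were summed per library and class in the 10 libraries with at least 10 selected cells, and 11103 genes were tested with edgeR's quasi-likelihood test with the library as a block. With the Benjamini-Hochberg adjusted p under 0.05, 1243 genes were higher (11.2% of those tested) and 1140 lower (10.3%), with a median log2 difference over all genes of -0.04. These shares are the background for each gene list below. Without E15.5 MIA replicate 1, the library with most selected cells, 783 genes were higher and 959 lower. Selected cells were deeper, with a median of 12921 UMIs against 10392, and with every cell thinned to 4000 UMIs 506 genes were higher and 570 lower of 8973 tested.

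Among genes with at least 50 CPM and the same direction in all 10 libraries, Ccl2 had the largest difference. It encodes the monocyte attractant MCP-1. In the 10 libraries it was at 154, 273 and 746 CPM (lowest, median, highest) in Ccl3/Ccl4-high cells and at 4.60, 10.4 and 21.3 CPM in other microglia. The lowest value in the selected cells was above the highest in other microglia, and the log2 difference was 4.87 ± 0.23 (SE, adjusted p = 4.3e-13, higher in 10 of 10 libraries). Atf3, a stress-induced transcription factor, was at 176, 235 and 420 CPM against 12.7, 21.7 and 31.7 CPM, again without overlap (log2 difference 3.64 ± 0.12, adjusted p = 4.3e-16). Csf1, the growth factor that acts through the microglial receptor CSF1R, was at 104, 310 and 475 CPM against 20.4, 39.7 and 60.4 CPM (2.86 ± 0.09, adjusted p = 4.3e-16). The same direction in all 10 libraries was a condition for the leading genes and is not a result about them.

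Cxcl10, an interferon-induced chemokine, and Tnf, the cytokine TNF, were also among the 12 leading genes but varied far more. Cxcl10 was at 5.50, 133 and 1478 CPM in the selected cells and at 1.45, 6.46 and 49.1 CPM in other microglia (4.35 ± 0.31, adjusted p = 5.2e-10). Tnf was at 4.79, 36.0 and 187 CPM against 2.04, 3.71 and 8.74 CPM (3.66 ± 0.40, adjusted p = 3.6e-07). Here the groups overlapped across libraries, although each library taken alone was higher in the selected cells, as the choice of leading genes required. The other leading genes were Rcan1, a calcineurin inhibitor (2.96), Gm13889 (2.60), Pmp22 (2.31), the early-response gene Ier3 (2.20), the long non-coding RNA Neat1 (2.10), Pfkfb3, which encodes a regulator of glycolysis (1.90), and Cd83, a surface protein of activated antigen-presenting cells (1.84), all higher in 10 of 10 libraries by the same condition.

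**Figure D2:**
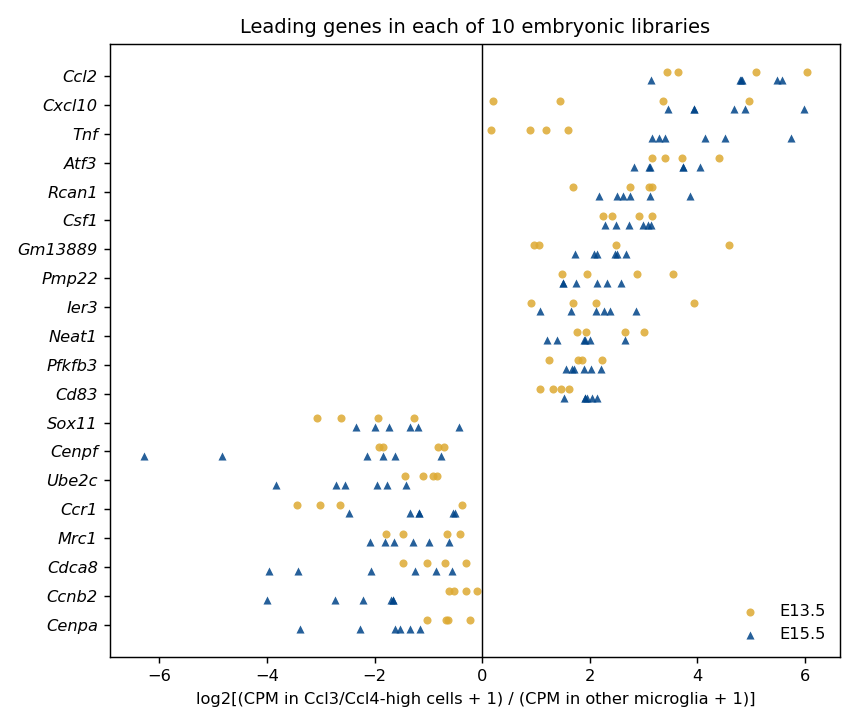
Log2 ratio of CPM + 1 in Ccl3/Ccl4-high cells to CPM + 1 in other microglia (x axis) for the 12 leading higher and 8 leading lower genes (y axis); each point is a library, circles E13.5 (4 libraries), triangles E15.5 (6 libraries). By the condition for leading genes, all 10 points lie to the right of 0 for the 12 genes at the top and to the left for the 8 at the bottom. The 4 E13.5 points of Tnf lie to the left of all 6 E15.5 points.

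Of 22 chemokine ligands outside the selection 11 were tested, of which 8 were higher and 2 lower over both ages, with a median log2 difference of 1.55. Besides Ccl2 and Cxcl10 these were Ccl5 (5.80 ± 0.37, adjusted p = 1.7e-10), Ccl7 (5.41 ± 0.40), Ccl12 (2.95 ± 0.38), Cxcl16 (1.55 ± 0.28), Ccl9 (1.24 ± 0.11) and Ccl6 (0.93 ± 0.10). Ccl5, which attracts T cells, was at 0 UMIs in the selected cells of all 4 E13.5 libraries and at 34.2 to 666 CPM at E15.5. Ccl12 at E13.5, from 45.5 to 219 CPM, overlapped the 58.6 to 88.9 CPM of other microglia. The 2 lower ligands were Pf4 (-1.71 ± 0.25), a gene of border macrophages and platelets, and Ccl24 (-1.23 ± 0.30). Of 7 chemokine receptors tested 2 were higher, Cxcr4 (2.27 ± 0.41) and Ccrl2 (2.26 ± 0.36), and 3 were lower, led by Cxcr2 (-1.34 ± 0.17) and Ccr1 (-1.17 ± 0.17), which encodes a receptor for CCL3.

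Among cytokines 11 of 14 tested were higher and none lower (median 1.08). Il1a, which encodes interleukin 1 alpha, was at 63.3, 88.8 and 148 CPM against 33.7, 45.4 and 54.4 CPM (1.21 ± 0.12, adjusted p = 1.2e-07, higher in 10 of 10 libraries). Il1b was lower in level and more variable, at 2.96, 14.6 and 104 CPM against 2.16, 3.37 and 4.68 CPM (2.96 ± 0.38, higher in 8 of 10). Il27 (3.53 ± 0.36), the interleukin 1 receptor antagonist Il1rn (2.94 ± 0.41) and Osm (2.08 ± 0.28) were higher, and Mif (0.48 ± 0.08) less so. Tgfb1 differed by 0.07 ± 0.06 (adjusted p = 0.45).

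Of 31 NF-kB targets and feedback genes tested 19 were higher and none lower (median 0.69). They included Nfkbiz (2.41 ± 0.24), Nfkbid (1.75 ± 0.17), Nfkbia (0.69 ± 0.13), Plaur (2.18 ± 0.13), Sdc4 (1.51 ± 0.08) and Socs3 (1.5 ± 0.20). Of the NF-kB subunit genes Nfkb2 (0.64 ± 0.20) was called higher, though not after thinning or without the interferon-high cells defined below, and Rela (0.15 ± 0.10), Rel (0.18 ± 0.09), Nfkb1 (0.07 ± 0.11) and Relb (0.52 ± 0.19) did not pass the test. Of 24 immediate early genes, which are transcribed within minutes of stimulation, 16 were higher and 1 lower (median 0.80). Egr2 had the largest difference, at 8.88, 19.6 and 47.9 CPM against 0.0710, 0.456 and 1.79 CPM (5.38 ± 0.32, adjusted p = 2.0e-11). Maff (2.57 ± 0.25), Egr1 (2.41 ± 0.28) and Jun (1.09 ± 0.16) were also higher in every library. Of 15 heat shock chaperones 11 were higher (median 0.33), led by Hspa1a (3.61 ± 0.35) and Hspa1b (2.84 ± 0.53), and of 20 ER and integrated stress genes 14 were higher and 1 lower (median 0.37), the lower one being Ddit4 (-1.81 ± 0.21). Immediate early and heat shock genes are also known to respond to tissue dissociation, and the part of dissociation was not tested. Nor was it tested for the selecting genes Ccl3 and Ccl4, the leading genes or the NF-kB and cytokine lists.

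Genes of lipid handling and of axon tract microglia were higher: 18 of 26 tested were higher and none lower (median 0.66). Cells with high Spp1 had been set aside, but below that cutoff Spp1 itself stayed higher in the selected cells. In E15.5 MIA replicate 3 it was at 98.2 against 9.23 CPM and in E15.5 saline replicate 2 at 108 against 13.9 CPM. The exception among the 10 libraries was E13.5 MIA replicate 3, with 57.76 against 57.83 CPM. Fabp5, a fatty acid-binding protein, was at 226, 626 and 1416 CPM against 116, 220 and 385 CPM (1.76 ± 0.16, adjusted p = 3.4e-08), higher in 10 of 10 libraries. Gpnmb (2.93 ± 0.43), Lilrb4a (2.07 ± 0.42), Lgals3 (1.98 ± 0.34) and Igf1 (1.36 ± 0.13) were higher too, and 4 of the 5 tested markers of Spp1-high microglia passed the test upwards. Of 27 lysosomal genes 22 were higher and 1 lower (median 0.35), among them the protease Ctsb, at 3678 to 8633 CPM against 2842 to 5462 CPM (0.68 ± 0.04, 10 of 10 libraries). Of 17 glycolysis and hypoxia genes 11 were higher and none lower (median 0.38), including Hif1a (0.87 ± 0.08) and the lactate transporter Slc16a3 (0.87 ± 0.10).

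Of 13 heme and iron genes 9 were higher and 1 lower (median 0.52). Hmox1, the enzyme that degrades heme, was at 329, 618 and 2515 CPM against 185, 294 and 411 CPM (1.56 ± 0.27, adjusted p = 0.00017, higher in 9 of 10 libraries). The homeostatic microglia genes went both ways: 8 of 23 were higher and 7 lower (median -0.01). Tmem119, a marker of mature microglia, was at 92.6, 149 and 186 CPM against 178, 338 and 438 CPM (-1.02 ± 0.07, adjusted p = 8.9e-11, lower in 10 of 10 libraries). Selplg (-0.76 ± 0.10) and Sall1 (-0.47 ± 0.09) were lower, and Crybb1 (0.44 ± 0.07) and Gpr34 (0.23 ± 0.05) higher, the last one not past the test without E15.5 MIA replicate 1. P2ry12, the purinergic receptor of homeostatic microglia, differed by -0.25 ± 0.07 (adjusted p = 0.017) and was lower in 7 of 10 libraries, and did not pass without E15.5 MIA replicate 2 or without E15.5 saline replicate 2.

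Mitotic genes were lower. Of 30 S phase and mitosis genes none was higher and 18 were lower (median -0.91). Ube2c, which encodes a ubiquitin-conjugating enzyme of mitosis, was at 5.87, 76.3 and 189 CPM in the selected cells against 76.2, 189 and 415 CPM (-1.56 ± 0.16, adjusted p = 1.2e-07, lower in 10 of 10 libraries as the choice of leading genes required). Cenpf (-1.62 ± 0.21), Cdc20 (-1.46 ± 0.17) and Cenpa (-1.10 ± 0.14) were lower by similar amounts. Among genes with at least 50 CPM and one direction in every library, Sox11 (-1.72 ± 0.14), a neuronal gene, had the lowest difference, and 8 of 10 neuronal markers tested were lower, as was Fabp7 (-2.55 ± 0.28) of neural progenitors. Hbb-bt of red blood cells was also called lower (-2.24 ± 0.74), but the call was lost after thinning, where the sign turned (0.12), and without any 1 of 5 libraries. Mrc1 (-1.17 ± 0.14), the mannose receptor of border macrophages, was lower, and of 9 tested border macrophage markers 2 were called higher and 4 lower. One of the 2 was Folr2 (0.52 ± 0.17), whose call was lost without any 1 of 5 libraries and whose sign turned after thinning (-0.05). Of 3 endothelial markers tested Kdr was higher (1.98 ± 0.28). Innate sensors and cytokine receptors were mixed, with 8 of 24 higher, led by the RNA sensor Ifih1 (1.93 ± 0.26), and 5 lower.

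The interferon-stimulated genes were the list with the largest median in this comparison: 21 of 25 tested were higher and none lower (median 2.78). Rsad2 (4.76 ± 0.35), Oasl1 (4.53 ± 0.36), Ifit2 (3.93 ± 0.29) and Isg15 (3.35 ± 0.41, adjusted p = 1.8e-06) encode antiviral proteins. Yet Isg15 was higher in 6 and lower in 4 of 10 libraries. At E13.5 it was at 6.84, 2.40 and 2.96 CPM in the selected cells of the 3 saline libraries and 2.75 CPM in MIA replicate 3, against 6.40 to 18.4 CPM in other microglia, above the selected cells in each library. At E15.5 it was at 263, 361 and 877 CPM (lowest, median, highest of 6 libraries) against 13.4, 24.7 and 42.4 CPM. All 4 libraries with the lower value were thus from E13.5 and all 6 with the higher value from E15.5. The summed blood myeloid markers split the libraries in the same way, and their part in this difference was not tested.

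The difference between Ccl3/Ccl4-high cells and other microglia changed with age in 163 genes, by a test of the interaction of class and age over the 10 libraries. In 140 genes (1.26% of 11103) the difference was more positive at E15.5 and in 23 (0.207%) more negative. Of the 25 tested interferon-stimulated genes, 20 were among the 140 and none among the 23. For Isg15 the change was 6.03 ± 0.27 on the log2 scale (adjusted p = 1.7e-15), for Irf7, the transcription factor that amplifies interferon responses, 4.55 ± 0.43, and for Ifitm3 4.15 ± 0.41. In the E13.5 selected cells Isg15 was at only 2.40 to 6.84 CPM and Irf7 at 0 to 4.79 CPM. The sizes of their changes are therefore poorly measured, whatever the SE. Ccl12, a ligand of CCR2, was at 133, 45.5, 62.2 and 219 CPM in the selected cells of the 4 E13.5 libraries and at 1034, 1464 and 1905 CPM at E15.5, against 58.6 to 88.9 and 69.4 to 129 CPM in other microglia (interaction 3.34 ± 0.23, adjusted p = 3.0e-11). Tnf also gained (3.30 ± 0.46). Ifit3, Rsad2 and Ccl5 were at 0 UMIs in the selected cells of all 4 E13.5 libraries, so that no interaction fold is given for them. The differences over both ages given above for Rsad2 and Ccl5 were fitted with these E13.5 libraries included.

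Genes with a more negative difference at E15.5 included Hmox1 and P2ry12. Hmox1 was at 1198, 2515, 2253 and 685 CPM in the selected cells at E13.5 and at 329, 505 and 1770 CPM at E15.5 (interaction -1.34 ± 0.28, adjusted p = 0.0076). P2ry12 was at 1091, 1085, 631 and 1006 CPM at E13.5, close to the 856 to 1048 CPM of other microglia, and at 1150 to 1577 CPM at E15.5, where other microglia had 1545 to 2276 CPM (interaction -0.53 ± 0.11, adjusted p = 0.0062). Without E13.5 MIA replicate 3 the interaction called 75 genes, without E13.5 saline replicate 1 it called 104 and without E15.5 saline replicate 2 it called 81.

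The age difference came with a distinct group of cells. Summing the UMIs of 10 interferon-stimulated genes (Isg15, Ifit1, Ifit2, Ifit3, Rsad2, Irf7, Oasl2, Usp18, Ifitm3 and Cmpk2) per cell, 482 of 672 Ccl3/Ccl4-high cells had none, and 79 (11.8%) had at least 20 per 10000, with only 4 between 5 and 20. This division was made after the values were seen and is a description, with no test. At E13.5 1 of 111 selected cells was interferon-high, in MIA replicate 2, the library that shared 61.3% of its barcodes with an E15.5 library, and at E15.5 78 of 561 (13.9%), from all 6 libraries: 2 of 18, 26 of 116 and 13 of 93 after saline, and 20 of 240, 14 of 61 and 3 of 33 after MIA. Among other microglia 71 of 11191 (0.634%) were interferon-high at E13.5 and 243 of 20738 (1.17%) at E15.5. Seen from the interferon-high microglia, 1 of 86 was Ccl3/Ccl4-high at E13.5 and 78 of 327 (23.9%) at E15.5.

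**Figure D3:**
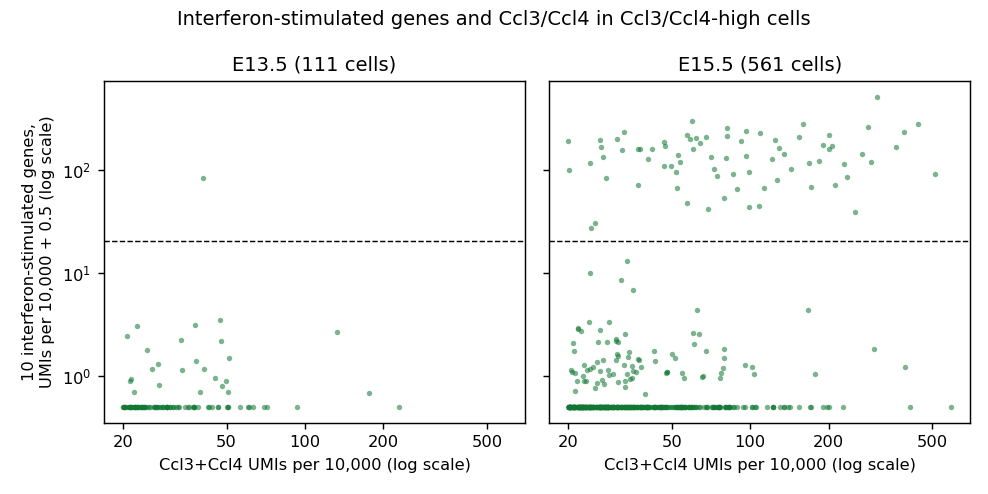
Summed UMIs of 10 interferon-stimulated genes per 10000 plus 0.5 (y axis, log scale) against Ccl3 and Ccl4 UMIs per 10000 (x axis, log scale) in each Ccl3/Ccl4-high cell at E13.5 (left, 111 cells) and E15.5 (right, 561 cells); the dashed line is the division at 20. Above the line are 1 cell at E13.5 and 78 at E15.5, among them 27 of the 51 cells with 120 or more chemokine UMIs per 10000.

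Interferon-high cells made up a larger share at higher chemokine levels, a description with no test, since the bins use the values that made the selection. They were 9 of 301 cells (2.99%) under 30 chemokine UMIs per 10000, 21 of 234 (8.97%) from 30 to 60, 22 of 86 (25.6%) from 60 to 120 and 27 of 51 (52.9%) at 120 or more. These bins pool both ages, and the part of the cells from E15.5 also rose over them (237 of 301, 196 of 234, 80 of 86 and 48 of 51). Among E15.5 cells alone, 9 of 237, 20 of 196 (10.2%), 22 of 80 (27.5%) and 27 of 48 (56.3%) were interferon-high in the same order. Median depth rose little over these bins, from 12685 to 14231 UMIs. The 78 interferon-high E15.5 cells carried 8826 CPM of Ccl4, against 1612 CPM in the 483 interferon-low E15.5 cells and 1514 CPM in the 110 at E13.5, whereas Ccl3 was at 3528, 2865 and 2408 CPM. Other chemokines were also higher in them: Ccl12 was at 10249, 92.2 and 149 CPM, Cxcl10 at 3928, 31.9 and 19.8 CPM, and Ccl5 at 2828, 0.454 and 0 CPM in the same order. Ccl2 was at 1346, 110 and 257 CPM and Ccl7 at 110, 47.4 and 40.6 CPM, so that the interferon-low cells held these as well. Tnf was at 366, 14.1 and 16.6 CPM and Il1b at 229, 6.21 and 22.6 CPM. Interferon-high cells among other microglia at E15.5 had 2379 CPM of Ccl12 and 1293 CPM of Cxcl10, but 13.9 CPM of Tnf and 24.5 CPM of Il1b.

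Some genes chosen after their values were seen were higher in the interferon-low Ccl3/Ccl4-high cells. Fabp5 was at 88.1 CPM in interferon-high E15.5 cells, 1193 CPM in interferon-low E15.5 cells and 826 CPM in interferon-low E13.5 cells, Igf1 at 2.87, 170 and 56.7 CPM, Cd9 at 475, 1814 and 943 CPM, and Csf1 at 69.9, 387 and 244 CPM. Egr2 was at 0.957, 24.5 and 19.4 CPM, Atf3 at 128, 278 and 256 CPM, and Hmox1 at 142, 752 and 1343 CPM. Other microglia that were interferon-low had 201 CPM of Fabp5, 40.7 CPM of Csf1 and 20.8 CPM of Atf3 at E15.5. Atf3 was thus above that level in both kinds of Ccl3/Ccl4-high cells, and Fabp5 only in the interferon-low kind. These sums pool cells over libraries and weight libraries by their cells: over libraries, the median of Fabp5 in all selected cells was 711 CPM at E13.5 and 626 CPM at E15.5.

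**Figure D4:**
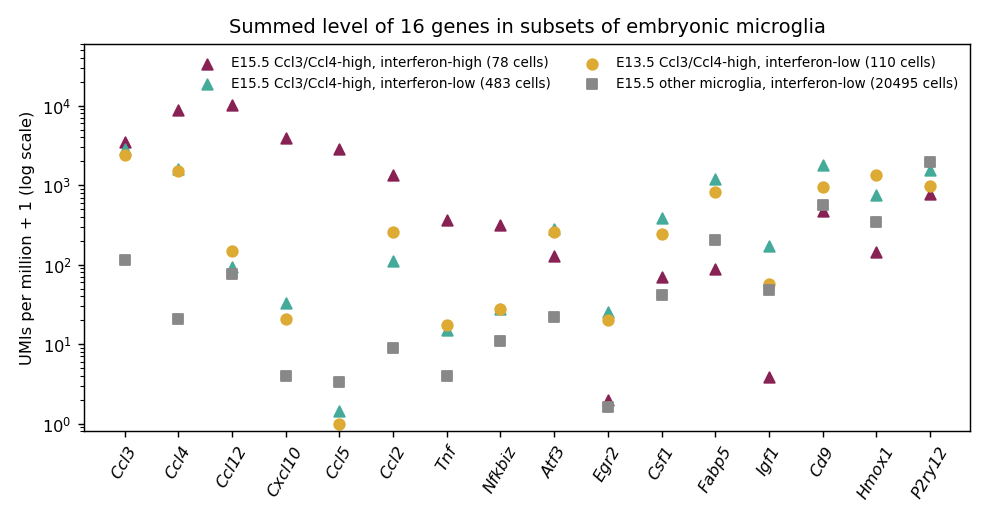
CPM (summed UMIs scaled to a common total) plus 1 (y axis, log scale) of 16 genes (x axis), summed over the cells of 4 subsets: E15.5 Ccl3/Ccl4-high interferon-high (78 cells) and interferon-low (483 cells), E13.5 Ccl3/Ccl4-high interferon-low (110 cells), and E15.5 interferon-low other microglia. Ccl12, Cxcl10 and Ccl5 lie highest in the interferon-high cells, and Fabp5, Igf1, Cd9, Csf1 and Egr2 highest in the interferon-low Ccl3/Ccl4-high cells.

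The test was repeated without the interferon-high cells, which were defined by 10 interferon-stimulated genes, so that the loss of those differences follows largely from the definition. With these cells removed from both classes, 1173 genes were higher (10.6% of 11057) and 1259 lower (11.4%), and 1001 of the 1243 higher (80.5%) and 1030 of the 1140 lower genes (90.4%) were called again. Of 20 interferon-stimulated genes tested only Cxcl10 was then higher (2.55 ± 0.56), and 6 were lower. Ccl12 differed by 0.63 ± 0.15 and Tnf by 1.91 ± 0.24, while Ccl2 (4.51 ± 0.24), Atf3 (3.71 ± 0.11), Csf1 (2.97 ± 0.10) and Egr2 (5.51 ± 0.30) kept their differences. Ccl5 had too few counts to be tested. Cxcl16, Ifih1 (0.20 ± 0.21), Kdr (0.54 ± 0.29) and Plac8 (-0.48 ± 0.34) no longer passed. The interaction of class and age was called for 2 genes in place of 163. By the same edgeR test 915 of 11057 genes had an unadjusted p under 0.05, against 1048 of 11103 with all cells. Weaker age differences are thus not shown to be absent.

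The cells were also divided by their balance of Ccl3 and Ccl4, which the selection had used, after the values were seen and with no test. In the 266 cells with at least 90% Ccl3, Ccl12 was at 29.0 CPM, Cxcl10 at 2.98 CPM and Isg15 at 4.07 CPM, against 1841, 575 and 528 CPM in the 380 mixed cells and 3640, 5469 and 1846 CPM in the 26 cells with at least 90% Ccl4. Fabp5 was at 994, 1020 and 98.1 CPM, low only in the 26 cells with mostly Ccl4. Atf3 was at 101, 358 and 75.0 CPM and Hmox1 at 211, 1212 and 110 CPM, highest in the mixed cells. In the 266 and the 380 cells Ccl2 was at 44.8 and 413 CPM and Tnf at 4.34 and 77.1 CPM. Il1a was at 34.4 and 142 CPM, Il1b at 1.90 and 49.6 CPM and Csf1 at 309 and 337 CPM. In the 266 cells Tnf and Il1a thus lay within the range of other microglia given above, and Il1b below it.

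With the filter on low counts, no gene passed the test for MIA in Ccl3/Ccl4-high cells. At E13.5 and at E15.5, 0 of 7939 genes (0.0%) passed edgeR's quasi-likelihood test in a model with 4 groups of libraries, with 140 and 108 genes at an unadjusted p under 0.05, and DESeq2 also called 0 and 0 (57 and 54 unadjusted). With no filter on low counts edgeR called 10 genes at E13.5 and 45 at E15.5, and with pairing by a replicate block it called 0 and 0, with 397 and 341 unadjusted. The E13.5 MIA group had 1 library, replicate 3, which is assumed to vary like the others. The genes with the smallest p, none of which passed, were Ccl12 (1.5 ± 0.41), Zbtb20 and Ccr1 (2.66 ± 0.79) at E13.5, and the neuronal transcripts Meg3, Auts2 (2.93 ± 0.72) and Nfib (2.06 ± 0.59) at E15.5. Zbtb20 was at 0 UMIs in the selected cells of all 3 E13.5 saline libraries and at 7.34 CPM in the MIA library, so that no fold is given. Meg3 was at 0, 1.15 and 0 CPM after saline and at 20.6, 29.6 and 0 CPM after MIA at E15.5, and its fold is left out as well. At E15.5 Isg15 differed by -0.35 ± 0.38, Ccl2 by -0.19 ± 0.47 and Tnf by 0.27 ± 0.50, each by less than its SE. Hmox1 was at 505, 504 and 1770 CPM after saline and 552, 344 and 329 CPM after MIA (-1.15 ± 0.42, not past the test).

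For a change with treatment in the difference between Ccl3/Ccl4-high cells and other microglia, 0 of 11103 genes (0.0%) passed edgeR's test. At an unadjusted p under 0.05 there were 333, and DESeq2 called 0 (163 unadjusted). The smallest p belonged to Jun (-0.95 ± 0.21), Hmox1 (-1.26 ± 0.29) and Arid4b (-0.75 ± 0.18), none of which passed. In saline libraries, E15.5 cells differed from E13.5 cells in 78 genes, 67 higher (0.844% of 7939) and 11 lower (0.139%). The higher ones included 17 of 26 interferon-stimulated genes, Ccl12 (4.51 ± 0.34, adjusted p = 6.1e-06), Ifitm3 (4.30 ± 0.63) and Crybb1 (1.99 ± 0.27), and the lower ones included Crip1 (-1.92 ± 0.30), Txn1 (-1.52 ± 0.26) and the mitotic condensin gene Ncapd2 (-3.04 ± 0.58). With interferon-high cells left out 12 genes were called, and 979 of 7372 had an unadjusted p under 0.05. With all cells 1179 of 7939 did. The count of 78 called genes rested on single libraries. It was 380 without E15.5 saline replicate 1 and 136 without E15.5 MIA replicate 1. It was 22 to 34 without E15.5 saline replicate 2 or any 1 of the 3 E13.5 saline libraries.

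Compared with Spp1-high microglia, the state with which they share Fabp5, Ccl3/Ccl4-high cells had higher Ccl2, Ccl12 and homeostatic transcripts and less of the lipid and glycolysis genes. Spp1-high cells were 454 barcodes selected by the same criteria but with at least 20 Spp1 UMIs per 10000 and under 20 of the chemokines, and a further 83 passed both thresholds. In 7 libraries with at least 10 of each, 176 of 5537 genes were higher in Ccl3/Ccl4-high cells (3.18%) and 125 lower (2.26%). The Spp1-high cells were shallow in some libraries, with a median of 1058 UMIs in E13.5 saline replicate 3 and 2719 in E13.5 MIA replicate 3. Without E15.5 MIA replicate 1 the counts were 48 and 25, without E15.5 saline replicate 2 they were 79 and 60, and without E13.5 MIA replicate 3 they were 108 and 71.

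Ccl2 was at 163, 218 and 445 CPM in the Ccl3/Ccl4-high cells of these libraries and at 0, 6.85 and 23.8 CPM in the Spp1-high cells (3.82 ± 0.26, adjusted p = 1.4e-07). Of 4 chemokine ligands tested 2 were higher, Ccl2 and Ccl12 (4.53 ± 0.42), and Ccl6 was at 84.6 to 414 CPM against 61.0 to 415 CPM. Ccl12 was at 45.5, 1293 and 1905 CPM against 6.85, 25.8 and 39.1 CPM. At E15.5 it was concentrated in the interferon-high cells, and this comparison was not repeated without them. Il1a (3.06 ± 0.22), Atf3 (2.11 ± 0.27) and Ier3 (1.97 ± 0.21) were higher, as were 8 of 11 immediate early genes and 12 of 23 homeostatic genes, including P2ry12 (1.14 ± 0.16) and Tmem119 (0.89 ± 0.23). Csf1 was not among the genes that passed, at 104 to 346 CPM against 70.3 to 405 CPM. Of 23 lipid handling and axon tract genes 10 were lower and none higher. Fabp5 was at 418, 969 and 1416 CPM against 1102, 3348 and 4623 CPM (-1.77 ± 0.14, adjusted p = 2.3e-07), Gpnmb differed by -3.37 ± 0.23 and Igf1 by -1.89 ± 0.17. Of 15 glycolysis and hypoxia genes 9 were lower. In Fabp5 and Igf1 Ccl3/Ccl4-high cells therefore lay between other microglia and Spp1-high cells.

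The same selection found 111 of 29554 microglia in the 6 P14 libraries, which had no part in choosing it. The shares were 0.330%, 0.482%, 0.322% and 0.207% after saline and 0.392% and 0.546% after MIA. The macrophage gene Ms4a7, which the selection allowed at 1 UMI, was at 30.5, 15.8 and 47.1 CPM in the selected cells of saline replicates 1, 3f and 3m. Other microglia of these libraries had 0.365 to 0.442 CPM. It was at 0 in the selected cells of saline replicate 2 and of the MIA libraries. Whether some P14 cells were border macrophages was not tested. In these cells Ccl4 was at 2003, 4627 and 7775 CPM and Ccl3 at 1390, 1698 and 2708 CPM, whereas in the embryo Ccl3 had the higher median. By the same test, 352 of 11128 genes were higher than in other P14 microglia (3.16%) and 555 lower (4.99%). The median of all genes was shifted by -0.22, and with DESeq2-type size factors, where it was -0.10, the counts were 515 and 338. DESeq2's own test called 393 higher and 161 lower, so which direction held more genes depended on the method.

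At P14 early-response genes and Ccl2 were far higher in the selected cells. Egr2 was at 23.6, 64.7 and 152 CPM against 0.373, 0.763 and 1.14 CPM (6.65 ± 0.39, adjusted p = 1.5e-61), Ccl2 differed by 6.54 ± 0.25, Egr1 by 6.15 ± 0.27 and Atf3 by 5.32 ± 0.21. The very small p-values of the P14 test rest almost wholly on the spread pooled over genes, not on each gene's own spread. Csf1 (4.03 ± 0.29), Cd83 (3.93 ± 0.15) and Hmox1 (2.85 ± 0.23) were higher, and 17 of 24 immediate early genes, 10 of 29 NF-kB genes, 7 of 14 cytokines, 5 of 10 chemokine ligands and 11 of 27 lysosomal genes were higher. Of 23 lipid handling genes 12 were higher (median 1.06), among them Lpl (1.75 ± 0.22), although Fabp5 itself was at only 8.32 to 61.1 CPM. Of the 10528 genes tested at both stages, 226 were higher in both, which is 19.1% of the 1185 embryonic and 65.3% of the 346 P14 genes. Lower in both were 245 (23.9% of 1027 and 44.5% of 551). For comparison, over all genes of each test 11.2% were higher in the embryo and 3.16% at P14, and 10.3% and 4.99% were lower.

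Interferon-stimulated genes were not higher at P14. There none of 19 interferon-stimulated genes was higher and 2 were lower, and none of the 111 cells was interferon-high, with a maximum of 4.16 UMIs per 10000. Isg15 was at 0 to 23.6 CPM against 8.70 to 15.4 CPM. Ccl12 was nevertheless higher, at 141, 431 and 991 CPM against 88.1, 119 and 133 CPM (2.11 ± 0.14, adjusted p = 9.7e-49). Of 28 S phase and mitosis genes 9 were higher and none lower, among them Ube2c (2.26 ± 0.44), which was at 0 UMIs in the selected cells of 3 of 6 libraries. These calls rested on P14 MIA replicate 1, which held the highest level of Ube2c (214 CPM), Cenpf (193 CPM) and Cenpa (173 CPM), and without that library edgeR called 0 of 26 such genes. Homeostatic genes were lower in 14 of 23 and higher in none, in 8 and 1 with the other size factors, and lower in 8 without P14 saline replicate 3f and in 9 without P14 MIA replicate 1. Tmem119 was at 707, 801 and 901 CPM against 1394, 1438 and 1543 CPM (-0.90 ± 0.11, adjusted p = 2.9e-15), a difference close to the embryonic one.

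**Figure D5:**
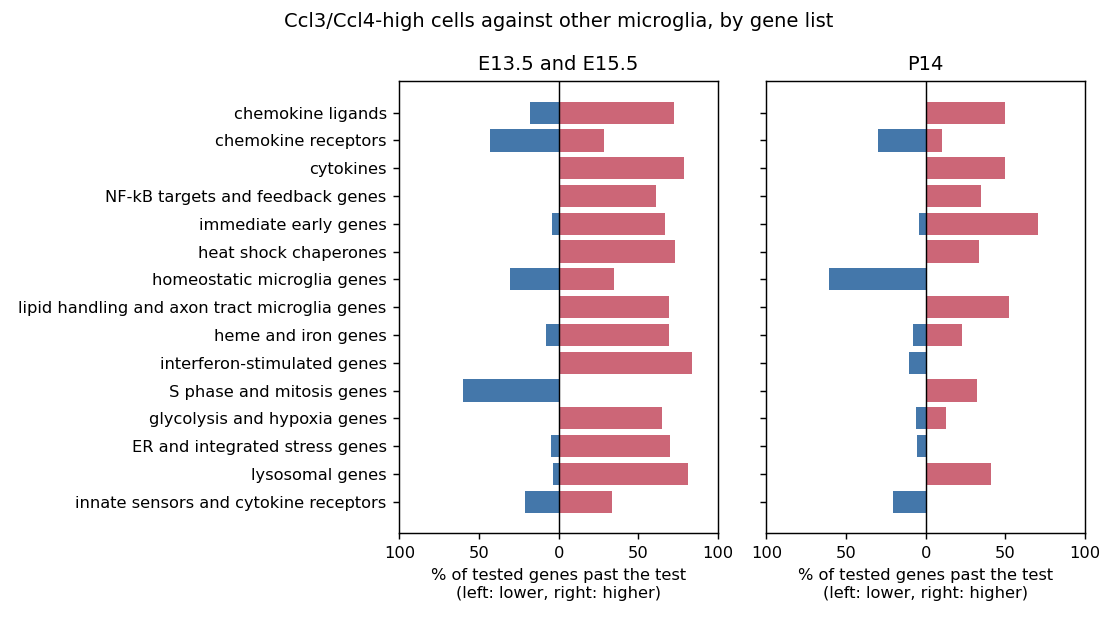
Percentage of the tested genes of 15 lists (y axis) that were higher (bars to the right) or lower (bars to the left) in Ccl3/Ccl4-high cells than in other microglia, in the embryo (left panel, E13.5 and E15.5) and at P14 (right panel). Interferon-stimulated genes were higher for 21 of 25 in the embryo and 0 of 19 at P14, and S phase and mitosis genes were lower for 18 of 30 in the embryo and higher for 9 of 28 at P14, or 0 of 26 without P14 MIA replicate 1.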

How the data were processed

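Sorted single cells were sequenced with 10x Chromium 3' v3.1 chemistry, and the deposited matrices hold UMI counts of 31053 genes per barcode. The authors aligned and counted reads against mm10 with Cell Ranger, version 3.1.0 by the submitters' processing notes; the study's methods give a later version, and which one made the deposited counts is unknown. Replicates were not pooled. The study filtered doublets in its own analysis, and whether the deposited matrices were filtered is not given in the sources used here. Nuclei libraries were not used here. The selection thresholds are given with the results, and the members and gene lists were chosen with earlier results of these data known. Gene positions are from GENCODE vM21. Counts were summed per library and class and tested with edgeR 4.0.16 (R 4.3.3, TMM, filterByExpr, quasi-likelihood test, Benjamini-Hochberg adjusted p under 0.05), with the library as a block between classes and a model of 4 groups for MIA and age. Each SE of a log2 difference was back-calculated from the F statistic of the test, as the absolute difference divided by the square root of F. It is not a separate estimate of the spread between libraries. The 6 selecting genes stayed out of the tests. Libraries with fewer than 10 selected cells were left out. Shares were compared by exact permutation tests. DESeq2 1.42.0, other size factors, filters, thresholds, thinning and leaving out each library were the alternatives. Doublets were scored with Scrublet in scanpy 1.11.5, with the expected rate as the marking level, and stayed in.

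Genes that could be named were the 12 highest and 8 lowest called genes with at least 50 CPM and the same direction in every library, up to 4 called genes per list, any tested chemokine, cytokine or NF-kB gene, and up to 8 called genes (or the 3 with the smallest p) for MIA, age and interactions. Genes named outside these places (such as Cd9, Crybb1, Gpr34 and P2ry12 against other microglia, or Lpl at P14), and the values by interferon and Ccl3 content, were chosen after values were seen. Each embryonic library pooled embryos, and the library was the unit of every test. The quasi-likelihood test estimates the spread between libraries partly from all genes together. Its p-values therefore do not rest on each gene's own spread alone. At P14 the smallest p-values are lower than a gene's own spread over 6 libraries could give, and rest almost wholly on the spread pooled over genes. They do not measure how alike the libraries were for a gene. Sequencing batch, a covariate of the study, is not in the labels and was not used. Same-numbered saline and MIA libraries deviated together at E15.5 (correlations 0.723, 0.452 and 0.758) but not all at E13.5 (0.657, -0.029 and 0.628).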

Additional observations from a re-analysis of the deposited data

Results flagged for a closer look

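The difference between Ccl3/Ccl4-high cells and other microglia changed between E13.5 and E15.5 in 163 genes, by edgeR's test of the interaction, which singled out the following genes. The change toward a more positive difference at E15.5 was 6.03 on the log2 scale for Isg15, 5.14 for Phf11b, 4.55 for Irf7, 4.44 for Ifit2, 4.15 for Ifitm3, 4.04 for Phf11d, 3.95 for Ifi204 and 3.34 for Ccl12. Isg15, Phf11b, Irf7, Ifit2 and Phf11d were at no more than 6.84 CPM in the selected cells of the 4 E13.5 libraries, so that the sizes of their changes are poorly measured. The change toward a more negative difference was -3.82 for Slc7a11, -1.69 for Ccnb2, -1.63 for Pdcd4, -1.34 for Hmox1, -1.23 for Gm26740, -0.92 for Susd3, -0.66 for Arhgap25 and -0.53 for P2ry12. Slc7a11, a cystine transporter, was uneven at E13.5, at 3.42, 105, 0 and 18.3 CPM in the selected cells of the 4 libraries. With interferon-high cells left out the interaction called 2 genes, and 915 of 11057 had an unadjusted p under 0.05. With all cells 1048 of 11103 did.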

How the results depend on the processing

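Against other microglia, 778 genes were higher and 624 lower at a threshold of 40 chemokine UMIs per 10000, 2008 were lower at 10, and 506 and 570 were higher and lower after thinning; leaving out 1 library gave 783 to 1220 and 821 to 1304. Against Spp1-high cells, 372 were higher with no filter on low counts, 455 and 465 were called in the 2 libraries with at least 20 cells, and leaving out 1 library gave 48 to 239 and 25 to 160. At P14, 338 were lower with DESeq2-type size factors and 161 with DESeq2, and leaving out 1 library gave 258 to 314 higher and 336 to 509 lower. MIA called 10 (E13.5) and 45 genes (E15.5) with no filter, 0 to 0 and 0 to 1 when 1 library was left out, and 0 and 0 under pairing by a replicate block (397 and 341 at an unadjusted p under 0.05). The age comparison in saline libraries called 461 genes with no filter, 142 with DESeq2, 17 with at least 20 cells per library, 12 without interferon-high cells, 223 at 10 per 10000 and 22 to 380 when 1 library was left out. The interaction with age called 265 with no filter, 2 without interferon-high cells and 75 to 205 when 1 library was left out. That with treatment called 11 with no filter, 2 with at least 20 cells and 0 to 1 when 1 library was left out. Without interferon-high cells, 979 genes of the age comparison and 915 of the interaction with age had an unadjusted p under 0.05. For the share, MIA at E13.5 differed by -0.42 points after thinning, -0.021 at 40 and -0.32 at 10 per 10000, and by -0.22 to 0.19 when 1 library was left out, against -0.052 to 1.85 at E15.5 and -0.010 to 0.94 over both ages, where pairing by replicate block gave 0.48 points (exact p = 0.656). At 40 and 10 per 10000 the MIA difference was 0.20 and 2.43 points at E15.5 and 0.088 and 1.05 over both ages. The age difference was 0.72 points at 40 per 10000 (exact p = 0.015), 2.79 at 10 (exact p = 0.105), 1.67 after thinning (exact p = 0.095) and 1.07 to 2.01 when 1 library was left out. The causes were not tested. The thinning and interferon settings test fewer genes or cells by construction. Left out were the age comparison with a block or at 40 per 10000, and MIA at E13.5 at 40 per 10000 or without its only library. Thinning was applied only against other microglia and to the shares, not against the shallower Spp1-high cells, at P14 or to MIA, age and interactions, and the other chemokine thresholds not against Spp1-high cells, at P14 or to interactions. Settings without shared barcodes, without interferon-high cells and gene lists at P14 without each library were added after seeing the data, and without shared barcodes 1325 genes were higher and 1079 lower. With 3 to 240 selected cells per library, genes of a few UMIs are poorly measured, and no absence of a change is shown.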
